A study of Mus musculus with 4 samples.

Results

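The Akr1c genes of the mouse are a family of aldo-keto reductases, and 8 of its members were described here: Akr1c6, Akr1c12, Akr1c13, Akr1c14, Akr1c18, Akr1c19, Akr1c20 and Akr1c21. They were found by symbol among 54838 Ensembl gene rows, with 1 row each. The members were chosen by symbol and by their expected counts in the 2 groups compared here, with that difference already known. Their levels and fold changes are therefore given as a description, without p-values.

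RNA sequencing compared cells of Hepa1-6, a mouse hepatocellular carcinoma line, that carried a control shRNA (titled shNC, genotype Setdb1 wild type) with Hepa1-6 cells that carried an shRNA against Setdb1 (titled shSet, genotype Setdb1 knockdown). Both groups are therefore shRNA-carrying cells, and the series design describes them as subclones of the line, without giving the number of clones. With this design, differences between subclones or other effects of the shRNA cannot be told apart from loss of Setdb1. Below, values given as after knockdown are those of the knockdown libraries and do not mark a later time. Each group held 2 libraries of total RNA. Nothing in the labels says that the 2 came from separate cultures, and the spread that each p-value rests on may therefore be technical.

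Aldo-keto reductases use a nicotinamide cofactor to interconvert ketones or aldehydes and alcohols. The Akr1c enzymes act on hydroxyl and keto groups of steroids, on prostaglandins and on xenobiotic alcohols, and several are abundant in liver, adrenal gland, gonads or kidney. Setdb1 is a histone methyltransferase that places the H3K9 mark and takes part in silencing retroelements and some gene clusters.

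All 8 members lie on chromosome 13 of GRCm38 in 1 cluster of 537.5 kb, from base 4049011 to base 4586541. In chromosomal order they are Akr1c14, Akr1c18, Akr1c13, Akr1c19, Akr1c12, Akr1c6, Akr1c20 and Akr1c21. Akr1c18, Akr1c12 and Akr1c20 are on the minus strand and the others on the plus strand. The longest complete reading frame of each has 972 bases, stop codon included, in a transcript of 9 exons (GENCODE M21). Over the 28 pairs, coding identity ran from 71.1% to 96.2%, with a median of 74.0%. The closest pair was Akr1c12 and Akr1c13, which differ at 37 coding positions and share a longest identical run of 228 bases. Next came Akr1c6 and Akr1c20 with 92.3%. The pair decides how well reads can be assigned, so the 90 coding bases in which Akr1c12 and Akr1c13 differ most (coding bases 313 to 402) are shown for 6 members, 5′ to 3′, with capitals where a base differs from Akr1c13.
Akr1c13: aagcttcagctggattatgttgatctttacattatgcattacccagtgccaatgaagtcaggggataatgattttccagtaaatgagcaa
Akr1c12: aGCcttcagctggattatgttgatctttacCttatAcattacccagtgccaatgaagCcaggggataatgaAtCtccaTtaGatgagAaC
Akr1c19: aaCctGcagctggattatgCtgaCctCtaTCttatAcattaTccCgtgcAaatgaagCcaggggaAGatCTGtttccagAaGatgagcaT
Akr1c6: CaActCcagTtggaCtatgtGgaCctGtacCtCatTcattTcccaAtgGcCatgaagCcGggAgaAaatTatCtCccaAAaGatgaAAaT
Akr1c20: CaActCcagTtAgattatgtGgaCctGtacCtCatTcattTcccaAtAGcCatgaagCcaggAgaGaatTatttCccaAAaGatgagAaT
Akr1c21: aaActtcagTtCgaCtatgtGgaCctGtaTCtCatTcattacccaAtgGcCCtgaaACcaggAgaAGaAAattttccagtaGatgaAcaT
Akr1c12 differed from Akr1c13 at 11 of these 90 bases, Akr1c19 at 20, Akr1c21 at 25, Akr1c20 at 26 and Akr1c6 at 28.

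**Figure D1:**
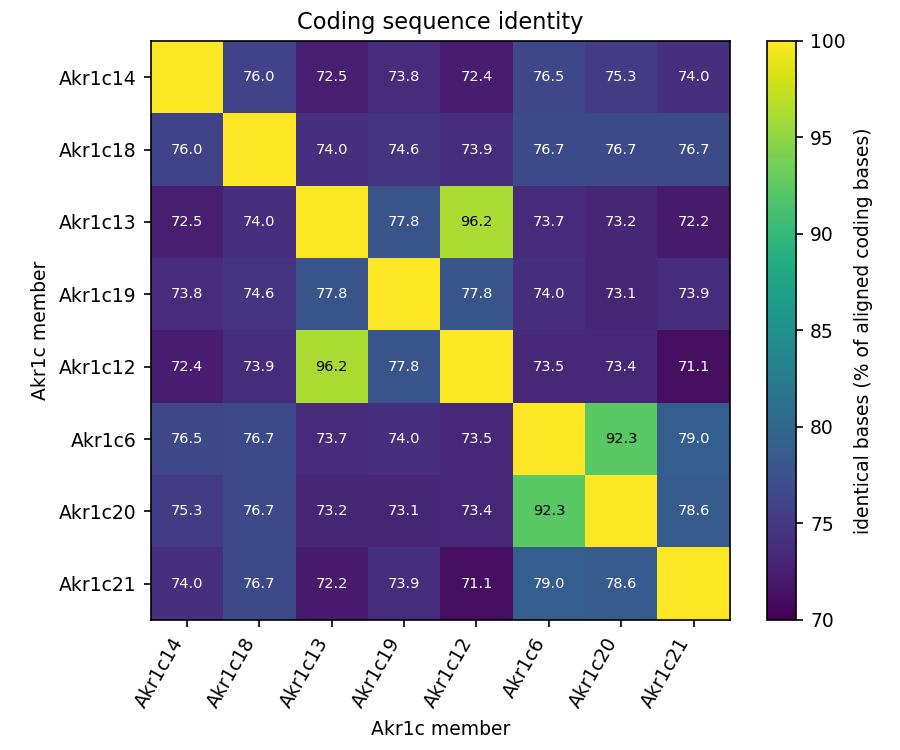
Percent of identical bases in the aligned coding sequences for each pair of the 8 members, in chromosomal order on both axes. The Akr1c12 and Akr1c13 cell (96.2%) and the Akr1c6 and Akr1c20 cell (92.3%) stand above all other pairs, which lie at 79.0% or below.

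The deposited counts are expected counts, where reads matching more than 1 feature are apportioned, and a count that is not whole (by more than 0.005) marks such sharing. Akr1c12 and Akr1c13 had fractional counts in all 4 libraries and the other 6 members in none. Of the 1212 different words of 50 bases in Akr1c12 transcripts, 347 (28.6%) also occur in Akr1c13 and in no other gene. For Akr1c13 the same 347 words are 24.2% of its 1432. Akr1c6 and Akr1c20 share 28 words of this length, 1.38% and 1.51% of their words, and Akr1c21 shares none with any gene. The sum of Akr1c12 and Akr1c13 was a whole number in every library, 2577 and 3424 counts in control 1 and 2 and 2704 and 2358 in knockdown 1 and 2. Akr1c12 received 2.85% and 2.58% of that sum in the controls, against 2.79% and 3.15% after knockdown, so its own level is the less certain of the pair. Akr1c14 shares 5.80% of its words with Gm18857, an overlapping pseudogene, and Akr1c19 shares 4.14% with Marcksl1-ps4, a pseudogene inside it. Both pseudogenes were listed at 0 in all libraries.

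Setdb1 itself was read at 51.2 and 59.4 CPM (counts scaled to the library total) in the controls and at 11.0 and 8.59 CPM in the knockdown libraries, a log2 fold change of -2.49 (SE 0.182, edgeR adjusted p = 1.495e-04). The libraries held 19513567 to 19615440 expected counts. Among 12821 genes tested, 764 (5.96%) were called at an adjusted p under 0.05 by edgeR's quasi-likelihood test with Benjamini-Hochberg adjustment, 538 higher (4.2%) and 226 lower (1.76%). Of 12 hepatocyte markers, Alb, Afp, Trf and Hnf4a were each above 90 TPM in every library, whereas Ttr, Apoa1 and Ahsg were at or below 0.58 TPM. Hepatocyte markers summed to 1720 to 1850 TPM in the controls and 2110 to 2350 in the knockdown libraries, cholangiocyte markers (4 genes) to 31.9 to 32.8 and 39.3 to 40.5, and stellate and fibroblast markers (6 genes, nearly all Dcn by level, with Acta2 and Lrat at 0) to 1230 to 1340 and 1350 to 1370. Leukocyte markers summed to 8.39 to 9.09 TPM in the controls and 15.0 to 16.7 in the knockdown libraries (6 genes, Cd3e among those at 0), and endothelial markers (4 genes) to 0.18 to 0.21 and 0.44 to 0.89. Steroidogenic markers (4 genes, Cyp17a1 at 0 and Nr5a1 at most 0.03) summed to 4.15 to 5.22 TPM in the controls and 7.76 to 9.20 in the knockdown libraries, and the part of any of these lists in the members' values was not tested. In bulk RNA, more cells with a transcript and more of it per cell cannot be told apart.

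On the length-corrected TPM scale, 2 members made up nearly all Akr1c RNA. Akr1c13 and Akr1c19 together held 97.3% and 97.2% of the family's TPM in control 1 and 2, and 94.2% and 92.5% of it in knockdown 1 and 2. The family summed to 305 and 422 TPM in the controls and to 350 and 296 TPM in the knockdown libraries. The groups overlapped in this sum, because control 2 was the highest library and control 1 lay next to knockdown 2. As CPM the sum was 274 ± 64.6 in the controls and 249 ± 27.2 in the knockdown libraries (SD, n = 2 per group), a log2 ratio of -0.138 that is smaller than the combined library spread of 0.378. Without control 2 the ratio changed sign, to 0.125.

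Akr1c13, an oxidoreductase of xenobiotic alcohols and hydroxysteroids, was the most abundant member. It was read at 178 and 234 TPM in the controls and at 185 and 159 TPM in the knockdown libraries. Its groups overlapped, with control 1 below knockdown 1, and its log2 fold change was -0.24 (SE 0.160). Akr1c19, an enzyme with related substrates, was read at 119 and 177 TPM in the controls and at 145 and 114 TPM in the knockdown libraries. Its groups overlapped as well (log2 fold change -0.13, SE 0.192), and the difference changed sign without control 2 (0.16) or without knockdown 2 (0.02). Both genes were highest in control 2. The ratio of Akr1c13 to Akr1c19 in TPM was 1.5 and 1.32 in the controls, against 1.28 and 1.39 after knockdown. Akr1c13 was above Akr1c19 in each library although their ranges over libraries overlapped.

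Akr1c12, the near copy of Akr1c13, stood far below it, at 4.73 and 5.73 TPM in the controls and 4.72 and 4.67 TPM in the knockdown libraries. Control 1 and knockdown 1 differed by the last printed digit, and on the CPM scale the groups overlapped (3.75 and 4.53 against 3.84 and 3.80). Its log2 fold change was -0.11 (SE 0.246). Summed with Akr1c13 the pair had a log2 fold change of -0.23, which is nearly that of Akr1c13 alone.

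Akr1c21 was the member with the widest difference. This enzyme is a hydroxysteroid dehydrogenase known from mouse kidney, where it forms epitestosterone. It had 0 counts in both controls and 139 and 149 counts in the knockdown libraries (9.21 and 9.90 TPM). All reads were thus in the knockdown libraries, which agreed closely with each other (7.35 ± 0.373 CPM, SD, n = 2). Against a floor of 3 counts over both controls the level was at least 95.8-fold higher, and with the floor set for 1 control library alone at least 47.8-fold. The abundance-weighted transcript length given for Akr1c21 was 1207 bases in both knockdown libraries, which is the length of the coding isoform. GENCODE also annotates an Akr1c21 isoform with a retained intron and 1 subject to nonsense-mediated decay.

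Akr1c20 lies beside Akr1c21 on the other strand. It had 6 and 3 counts in the controls and 41 and 51 counts in the knockdown libraries (0.36 and 0.18 against 2.40 and 3.13 TPM). The groups were well apart, with the lower knockdown library above the higher control by more than the whole spread within either group. Its log2 fold change was 3.33 (SE 0.469), and the ratio of summed counts was 10.2 (exact 95% binomial interval 5.15 to 23.0, which covers counting error only). On log2(TPM + 1), which compresses low levels, the difference was 1.56.

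Akr1c6, the hepatic enzyme that makes testosterone from androstenedione, is the nearest relative of Akr1c20. It had 0 counts in both controls and 3 and 1 in the knockdown libraries. At this depth it was barely detected (at most 0.17 TPM), and it did not pass the filter on low counts. A count of 0 in a library of this size allows up to 3 counts, so the groups cannot be separated for this gene.

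Akr1c14, a hydroxysteroid dehydrogenase that reduces dihydrotestosterone and dihydroprogesterone, lies at the opposite end of the cluster. It was read at 1.10 and 1.32 TPM in the controls and 1.76 and 2.88 TPM in the knockdown libraries (40 and 45 against 67 and 108 counts). Both knockdown libraries were above both controls, but they differed from each other by more than knockdown 1 differed from the controls. The log2 fold change was 1.05 (SE 0.315) with all libraries and 0.66 without knockdown 2.

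Akr1c18, the enzyme that inactivates progesterone in the ovary, was read at 2.19 and 4.62 TPM in the controls and 2.07 and 1.61 TPM in the knockdown libraries. Both knockdown libraries were lower, yet control 1 lay next to knockdown 1 and control 2 stood apart. The log2 fold change of -0.83 (SE 0.401) became -0.22 without control 2, so 1 library set most of it.

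**Figure D2:**
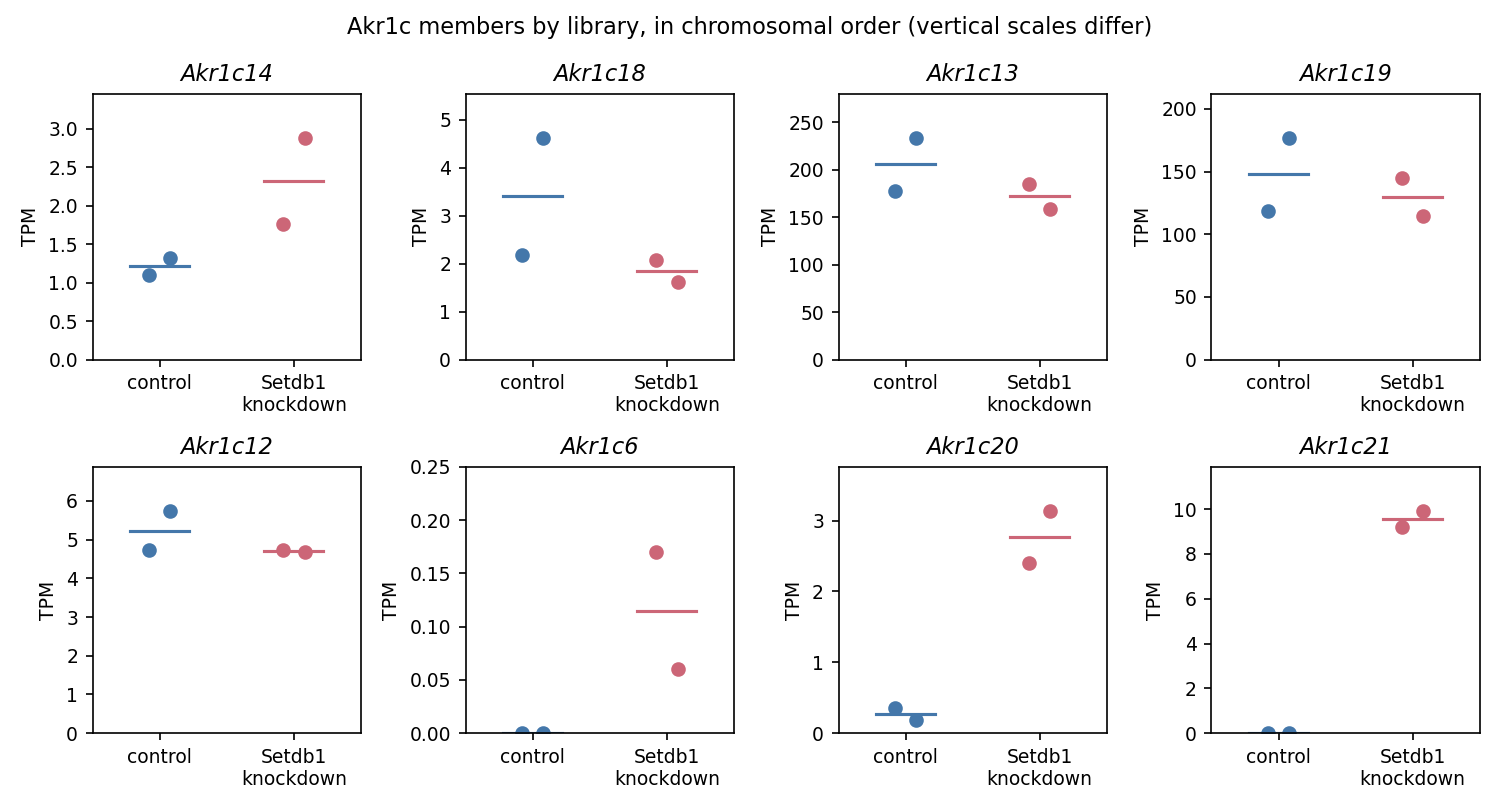
TPM of each of the 8 members in each library, in chromosomal order. Points are libraries and horizontal lines group means (n = 2 per group), and the vertical scales start at 0 and differ between panels. Akr1c21 and Akr1c20 sit at or near 0 in the controls and at 9.21 to 9.90 and 2.40 to 3.13 TPM in the knockdown libraries, while Akr1c13 and Akr1c19 overlap between the groups.

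The order of the members by mean TPM differed between the groups below the top pair. In the controls it was Akr1c13 (206), Akr1c19 (148), Akr1c12 (5.23), Akr1c18 (3.41) and Akr1c14 (1.21), then Akr1c20 (0.27), with Akr1c6 and Akr1c21 at 0. In the knockdown libraries it was Akr1c13 (172), Akr1c19 (130), Akr1c21 (9.56), Akr1c12 (4.70), Akr1c20 (2.77), Akr1c14 (2.32), Akr1c18 (1.84) and Akr1c6 (0.115). The step from Akr1c19 to the next member was clear of the spread in both groups. In the knockdown libraries the ranges of Akr1c20 and Akr1c14 overlapped, as did those of Akr1c14 and Akr1c18. In the controls, Akr1c19 in control 2 (177 TPM) came close to Akr1c13 in control 1 (178 TPM). The summed TPM of Akr1c14, Akr1c20 and Akr1c21 was 1.46 and 1.5 in the controls, against 13.4 and 15.9 after knockdown. These 3, grouped after their values were seen, held 0.479% and 0.355% of the family's TPM in the controls, against 3.82% and 5.38% after knockdown.

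Of the 8 members, 7 passed the filter on low counts, 2 of them (Akr1c20 and Akr1c21) only through the knockdown libraries. Both knockdown CPM values lay above both controls in 3 of these 7 and below them in 1. The same separation held for 51.9% of all 12821 genes tested, upward for 25.4% and downward for 26.5%, and since this contrast chose the members, nothing is read from the counts. The median log2 fold change was -0.108 over the 7 and -0.00519 over all genes tested.

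Along the chromosome the higher members stood at the 2 ends of the cluster. Akr1c14 is the first gene and Akr1c20 and Akr1c21 are the last 2, while the 4 members between Akr1c14 and Akr1c6 had log2 fold changes from -0.83 to -0.11. Within 500 kb of the outermost members lie 30 other annotated genes, of which 6 had enough counts to test. With all libraries and group only in the fit, none of the 6 was called by edgeR, DESeq2 or limma on log2(TPM + 1). By edgeR 5.96% of all genes were called. Of the 6, 2 had an unadjusted edgeR p under 0.05, 1 in each direction, a level that 21.3% of all tested genes reached. The log2 fold changes of Gm9973, Net1 and Fam208b depended on the control used. They were -1.44, -0.53 and -0.60 without control 1 and -0.52, -0.15 and 0.02 without control 2. Without control 1, those of Asb13, Gm47813 and Akr1e1 were 0.00, 0.26 and 0.48.

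Akr1e1, a related reductase that acts on anhydrofructose, lies on the minus strand beyond Akr1c21, with its nearest (3′) end 4.21 kb and its start 22.6 kb away. It had 314 and 334 counts in the controls, against 497 and 423 after knockdown, a log2 fold change of 0.52 (SE 0.172, edgeR adjusted p = 0.119). In TPM its libraries were nearly level, at 15.4 and 15.1 in the controls, against 15.4 and 15.6 after knockdown. Its abundance-weighted transcript length went from 1571 and 1700 bases in the controls to 2274 and 1959 bases in the knockdown libraries, and that length divides the counts. No such shift accompanied Akr1c20, whose length was 1330 and 1328 bases in the controls, against 1333 and 1284 after knockdown. Gm9973, a transcribed pseudogene between Akr1c12 and Akr1c6, had 93 and 179 counts in the controls, against 63 and 67 after knockdown (log2 fold change -1.05, SE 0.323, edgeR adjusted p = 0.0956). Farther out, Net1 had a log2 fold change of -0.35 (edgeR adjusted p = 0.239), Fam208b -0.32, Asb13 -0.07 and Gm47813 -0.47 (edgeR adjusted p from 0.40 to 0.868).

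**Figure D3:**
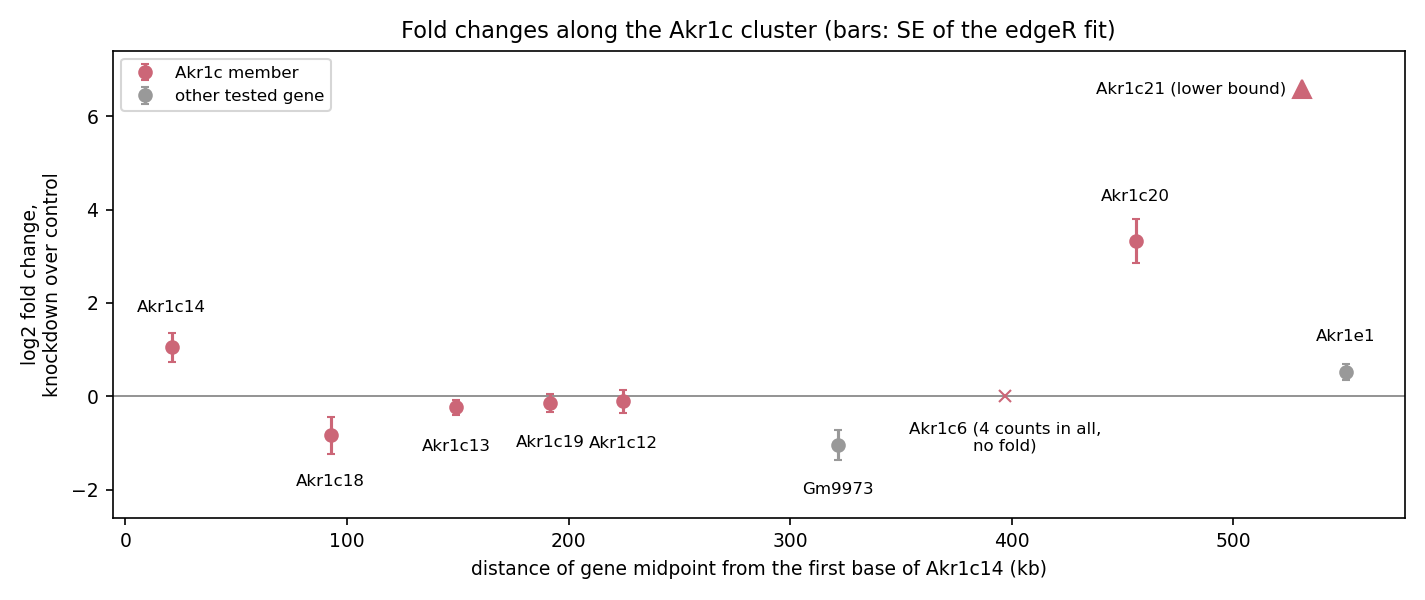
Log2 fold change of the members and of the other tested genes from Akr1c14 onward, against the distance of the gene's midpoint from the first base of Akr1c14 in kb. Bars are SEs of the edgeR fit, the triangle is the lower bound for Akr1c21 and the cross marks Akr1c6, for which no fold is given. Akr1c20 (3.33) and Akr1c21 lie high at the right end, and Akr1e1 just beyond them lies at 0.52.

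The files also hold 60983 loci named only by position, and 73 of them lie in the same window, 30 between the outermost members. Of the 73, 63 had no counts in any library and 4 had at least 10 counts in all. Each of these 4 had counts that were not whole, which marks reads shared with other features. The locus at chr13:4067478-4068389, on the minus strand inside plus-strand Akr1c14, had 8.16 and 16.8 counts in the controls, against 2.83 and 10.5 after knockdown, which overlapped. The locus at chr13:4338934-4340769, 59.5 kb from the nearest member, went the other way, with 1.22 and 1.08 against 5.48 and 3.46 counts. The locus at chr13:4461200-4463131, 3.32 kb beyond Akr1c6, had 4.73 and 3.0 against 2.14 and 1.2 counts. The last, at chr13:4872492-4874012, overlapped between the groups (4.22 and 8.05 against 2.52 and 4.74). Together the 30 loci between the members held 18.5 and 25.6 counts in the controls, against 14.4 and 16.1 after knockdown, too few to test.

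Promoter sequence set Akr1c12 and Akr1c13 apart from the other members. The RefSeq promoter table (GRCm38.p6) held 7 of the 8 members, and the 200 bases from -250 to -51 before the start lay outside all GENCODE exons in each. The window of Akr1c19 lies inside the gene as GENCODE annotates it, since RefSeq places the start further downstream. For Akr1c12 and Akr1c13, 188 of 196 aligned bases were identical (95.9%). The 3 members with the highest control levels are shown beside Akr1c21, which had no counts in the controls, each 5′ to 3′ on the gene's strand. Capitals mark CATTAG or its reverse complement CTAATG, a word chosen, like the other words searched, after the sequences were seen. The windows are chr13:4190937-4191136 (plus) for Akr1c13, chr13:4279450-4279649 (minus) for Akr1c12, chr13:4233490-4233689 (plus) for Akr1c19 and chr13:4573825-4574024 (plus) for Akr1c21.
Akr1c13: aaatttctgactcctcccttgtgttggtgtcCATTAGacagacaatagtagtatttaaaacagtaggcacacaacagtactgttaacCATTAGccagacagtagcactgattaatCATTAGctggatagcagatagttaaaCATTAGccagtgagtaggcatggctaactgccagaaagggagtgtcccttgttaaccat
Akr1c12: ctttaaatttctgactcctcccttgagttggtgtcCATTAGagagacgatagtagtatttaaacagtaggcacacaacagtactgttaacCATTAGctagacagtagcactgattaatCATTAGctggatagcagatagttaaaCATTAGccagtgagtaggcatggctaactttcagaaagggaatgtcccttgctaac
Akr1c19: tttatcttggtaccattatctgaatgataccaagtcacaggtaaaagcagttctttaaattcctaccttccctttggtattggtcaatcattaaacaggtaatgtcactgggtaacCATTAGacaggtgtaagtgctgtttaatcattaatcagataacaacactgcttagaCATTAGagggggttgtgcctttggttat
Akr1c21: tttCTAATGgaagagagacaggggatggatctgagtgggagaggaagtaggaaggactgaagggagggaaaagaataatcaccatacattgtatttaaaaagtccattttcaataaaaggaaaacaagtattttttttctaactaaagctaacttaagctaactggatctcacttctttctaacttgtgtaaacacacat
CATTAG occurred 4 times in Akr1c13 and in Akr1c12, 2 times in Akr1c19, once in Akr1c21 and Akr1c6, and not in Akr1c14 or Akr1c18. Among all 32851 promoter windows of this length, 5.33% held it at least once, 0.234% at least 2 times, and the only 2 windows with 4 or more were those of Akr1c12 and Akr1c13. GTTAAT, letters of the site known for the liver factor HNF1, was in none of the 7 windows (5.33% of all hold it). The related word GTTAAC, which reads the same on both strands, occurred 2 times in Akr1c13 and 1 time in Akr1c12 (2.15% of all hold it), with no base shared with CATTAG. TGACNNNGC, the core letters of the antioxidant response element bound by NRF2, was in none of the 7 windows, and 7.66% of all windows hold it. Also searched were CCAAT, found 1 time each in Akr1c14, Akr1c19 and Akr1c6 (28.4% of all hold it), and AGGTCA, found in none of the 7 windows (11.4%). All words were searched on both strands. A match of letters is a description and not a binding site, and promoter sequence does not vary between the libraries.

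The genes around the family were followed in 9 lists with 186 genes in the files, of which 118 were tested. edgeR called 9 higher and 5 lower, 11.9% against 5.96% of all genes tested, and the median log2 fold change was 0.00982. The lists were chosen with earlier results of these data known. Among the 9, Cyp21a1 passed the filter on low counts only through the knockdown libraries, so nothing is read from this share. None of the 7 tested other aldo-keto reductases was called by edgeR, DESeq2 or limma (2 had an unadjusted p under 0.05, both higher, where 21.3% of all tested genes did). These 2 were Akr1e1 and the Akr1c-like gene Akr1cl on chromosome 1, with 8 and 9 counts in the controls, against 23 and 18 after knockdown. Akr1cl passed the filter on low counts only through the knockdown libraries. None of the 12 tested hydroxysteroid dehydrogenases and steroid reductases was called by any of the 3 tools either (4 at an unadjusted p under 0.05, all lower, against the same 21.3%, with a median log2 fold change of -0.25), nor any of 6 steroid receptors (0 unadjusted).

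In steroid hormone synthesis, 3 of 10 tested genes were called, 2 higher and 1 lower. Cyp21a1, the steroid hydroxylase of the adrenal cortex, had 4 and 0 counts in the controls, against 34 and 56 after knockdown (log2 fold change 4.42, SE 0.703, edgeR adjusted p = 0.00646). Cyp21a1 passed the filter on low counts only through the knockdown libraries, so nothing is read from its call. Its fold rests on control 1, the only control with reads, and the log2 fold change was 3.45 to 8.50 with 1 library left out. Cyp11a1, the side-chain cleavage enzyme, rose by 0.93 on the log2 scale from 6.03 ± 0.994 to 11.4 ± 1.43 CPM (edgeR adjusted p = 0.0423), and did not pass without control 2 (0.0836) or without knockdown 2 (0.172). Nr5a2, a nuclear receptor of liver and steroidogenic cells, fell by 0.96 (edgeR adjusted p = 0.0232), and did not pass without knockdown 1 (0.0706).

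Of 33 tested genes of the NRF2 list, 7 were called, 4 higher and 3 lower. The microsomal epoxide hydrolase gene Ephx1 was at 64.6 ± 12.8 CPM in the controls and rose to 187 ± 1.76 CPM, by 1.54 on the log2 scale (SE 0.165, edgeR adjusted p = 8.860e-04). The glutathione S-transferase gene Gstp2 rose by 3.28 on the log2 scale (edgeR adjusted p = 1.877e-04), although its counts were fractional throughout and so include shared reads. Osgin1 fell by 1.07 and Gsta4 by 1.29 on the log2 scale, and Gsta4 did not pass without knockdown 1 (edgeR adjusted p = 0.0697). Members of the NRF2 list were thus called in both directions. Its other called genes, Nqo1, Fth1 and Taldo1, had log2 fold changes of 1.86, 0.59 and -0.57 (edgeR adjusted p = 0.021, 0.0371 and 0.0307) and were named after their values were seen. Fth1 did not pass with the replicate block (0.116), without knockdown 1 (0.0764) or without knockdown 2 (0.114), and Taldo1 did not without knockdown 2 (0.117).

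Among genes that handle the same kinds of substrate, 1 of 19 carbonyl reductases and short-chain dehydrogenases was called, Dhrs7, which rose by 0.93 on the log2 scale from 13.6 ± 0.730 to 25.7 ± 3.31 CPM (edgeR adjusted p = 0.015). Of 14 aldehyde dehydrogenases 1 was called, Aldh3a2, which acts on fatty aldehydes and rose by 0.64 (edgeR adjusted p = 0.0232, or 0.0573 without knockdown 1). Of 12 prostaglandin genes 1 was called, Hpgds, a prostaglandin D synthase, which fell by 1.13 from 23.6 ± 2.82 to 10.7 ± 2.22 CPM (edgeR adjusted p = 0.0133). Of 8 bile acid synthesis genes 1 was called, the oxysterol hydroxylase Cyp7b1, which rose by 0.82 (edgeR adjusted p = 0.0463). Cyp7b1 did not pass without knockdown 2 (0.253), with the replicate block (0.0595) or in edgeR's legacy fit (0.0502). On log2(TPM + 1), limma did not call 8 of the 14 genes, Dhrs7, Aldh3a2, Hpgds, Cyp7b1, Cyp11a1, Nr5a2, Nqo1 and Fth1 (limma adjusted p from 0.0542 to 0.143).

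**Figure D4:**
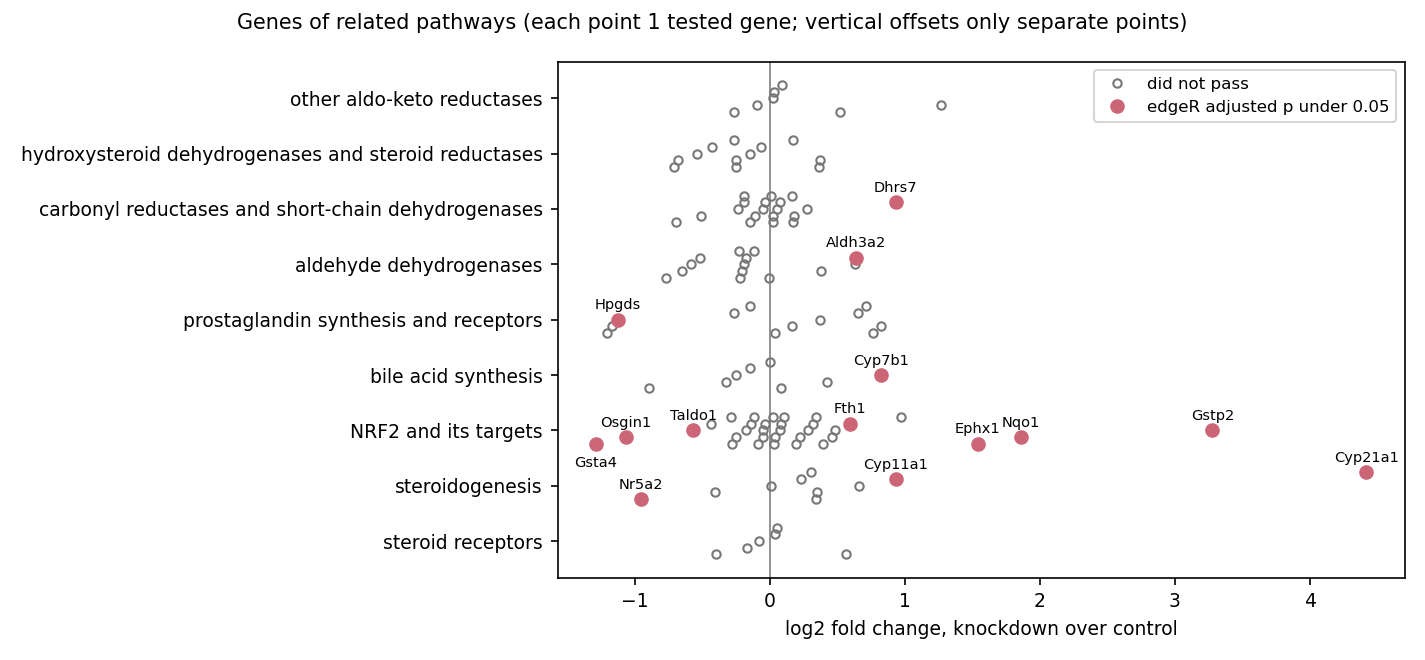
Log2 fold change of each tested gene in 9 lists of related pathways, 1 point per gene. Filled points are the 14 genes called by edgeR, 9 higher and 5 lower, and open points did not pass. No filled point stands in the rows of other aldo-keto reductases, hydroxysteroid dehydrogenases or steroid receptors.

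The profiles of the 2 abundant members over the 4 libraries were shared by many other genes. Likeness was the root mean square difference of centred log2 CPM over the 4 libraries among 9913 genes of at least 5 CPM. Zfp780b (0.0145), Sgo2a (0.016) and Cbx8 (0.018) were nearest to Akr1c13, and Ikbip (0.0156), Gps2 (0.0175) and Hmg20b (0.0206) to Akr1c19. Within 0.1 of Akr1c13 lay 634 genes and of Akr1c19 202, and each was within 0.0898 of the other. With 4 libraries such a match singles out no gene.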

How the data were processed

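Per the labels' protocols, total RNA was extracted with an RNeasy Plus Mini kit and libraries were made with a NEBNext Ultra Directional kit. Per the submitters' processing notes, the tools were FastQC, STAR, RSEM and DESeq2 and the build GRCm38 (mm10). For tool versions, annotation release and counting strand: not given in the sources used here. Per the file headers, the authors deposited expected counts, TPM and transcript lengths per gene, of which TPM corrects for transcript length. Without strand, overlapping antisense genes cannot be told apart.

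Groups came from the sample titles. Expected counts were rounded and tested with edgeR 4.0.16 (TMM, filterByExpr, quasi-likelihood F-test, group only; 12821 genes). CPM used the sum over all 115821 rows. A count within 0.005 of an integer was called whole. Simulated data for the 12821 genes returned 72.0% of 2-fold and 94.3% of 4-fold changes, with 4.1% false calls. The simulated spread was set by abundance alone and did not vary by gene, so these rates may not hold for the real libraries. GENCODE M21 matched 54723 genes without version. Within groups the libraries differed beyond sampling noise (chi-square per gene 26.1 and 23.8).

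Members and lists were chosen with earlier results of these data known. Named genes were the members, Setdb1, in each list at most 4 called genes, taken by smallest p, tested neighbours within 500 kb, and 3 nearest profiles for each of 2 members. Alternatives were DESeq2 1.42.0, limma 3.58.1 on log2(TPM + 1), other scaling and filters, left-out libraries, a replicate block and, chosen after seeing the data, the legacy fit and crossed numbers.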

Additional observations from a re-analysis of the deposited data

How the results depend on the processing

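The 764 calls over all genes became 0 without a filter on low counts in edgeR (3378 of 21511 genes had an unadjusted p under 0.05), 334 with limma on log2(TPM + 1) and 740 to 1677 with 1 library left out, the highest without control 1. The 14 calls in the related lists became 0 without the filter (38 of 158 unadjusted), 6 with limma and 12 to 25 with 1 library left out. The cause of these shifts was not tested. DESeq2 on the filtered genes called 896 and 17. With the replicate number as a block (replicate block) the counts were 862 and 13, and Cyp7b1 (adjusted p = 0.0595) and Fth1 (0.116) did not pass. The deviations of same-numbered libraries from their group means had a weak negative correlation across genes (-0.183). With the numbers crossed the counts were 2339 and 31. The labels do not say that a number marks a shared batch.

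The summed members' log2 ratio was -0.361 to 0.125 with 1 library left out, -0.122 with the replicate block, -0.126 with DESeq2 size factors and -0.172 on TPM. Of 80 recomputed values of single members, 2 moved by more than the library spread, both for Akr1c20 (3.91 without control 1 and 1.56 on log2(TPM + 1)). The 80 values covered Akr1c12, Akr1c13, Akr1c14, Akr1c18, Akr1c19 and Akr1c20. Akr1c6 and Akr1c21 were not among them. Akr1c12 and Akr1c19 changed sign without control 2 (0.01 and 0.16), and Akr1c19 also without knockdown 2 (0.02). With 1 library left out, Fam208b ranged from -0.60 to 0.02, Asb13 from -0.14 to 0.00 and Gm47813 from -0.95 to 0.26, which are changes of sign. Of 216 recomputed values of Setdb1, listed genes and neighbours, 182 kept their direction and side of the threshold. Where a group had 1 library left, its spread was assumed to be that of the other group. Members under about 10 counts are limited by depth.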

Other observations

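Of the marker genes of the 7 cell type lists, 7 were called by edgeR, which called 5.96% of all genes tested. Among tested hepatocyte markers, 1 of 9 was called higher and 2 lower. Called too were 1 of 4 cholangiocyte, 1 of 2 stellate and fibroblast, 1 of 2 steroidogenic and the 1 tested stomach marker. Neither the 2 tested leukocyte markers nor the 1 endothelial marker was called in the main fit. Cd68 and Csf1r (edgeR adjusted p = 0.0561 and 0.0811) and endothelial Pecam1 (0.0593) were higher at an unadjusted p under 0.05, a level that 21.3% of all tested genes reached. DESeq2 called 1 of the 2 leukocyte markers, and edgeR with the replicate block called 1 of them and Pecam1. Pecam1 had 9 and 7 counts in the controls, against 39 and 20 in the knockdown libraries. Of the 7 called markers, Cyp11a1, of the steroidogenic list, is described above, and the other 6 are given here. Among hepatocyte markers, albumin, Alb, rose by 0.94 on the log2 scale (edgeR adjusted p = 0.00563), while Apob fell by 0.75 (0.0122) and Hnf4a fell by 0.60 (0.0302, or 0.141 without knockdown 2). The collagen gene Col1a1, of the stellate and fibroblast list, rose by 2.17 from 16 and 15 counts to 60 and 79 (edgeR adjusted p = 0.00652). The epithelial adhesion gene Epcam, of the cholangiocyte list, rose by 1.06 (9.30 to 11.1 TPM in the controls and 20.6 TPM in both knockdown libraries, edgeR adjusted p = 0.00919). The trefoil factor gene Tff1, of the stomach epithelium list, fell by 1.27 from 160 and 151 TPM to 61.2 and 66.9 TPM (edgeR adjusted p = 0.00307), and the other stomach markers Gkn1, Gkn2 and Muc5ac were at 0 in all libraries. On log2(TPM + 1), limma did not call Apob (adjusted p = 0.0988) or Col1a1 (0.0755), and no marker was called by edgeR without the filter on low counts (adjusted p from 0.0945 to 0.188 for these 6).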
